A study of Mus musculus with 12 samples.

Results

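The comparison described here sets 2-cell embryos from Pabpn1l knockout (KO) mice against KO oocytes at the germinal vesicle (GV) stage, the fully grown oocyte before meiosis resumes, and gives the net change of each transcript across fertilization. It uses 4 of the 12 libraries of the series, 2 of KO GV oocytes and 2 of KO 2-cell embryos, and all 11298 complete genes of the deposited table. The 4 wild-type (WT) GV and 2-cell libraries were used for the matching WT comparison, and the 1-cell libraries show where along the course a level lay. All mice were C57BL/6, and each library came from 10 oocytes or embryos. Oocytes were taken in vivo and used without treatment, whereas embryos were grown in KSOM culture medium. The labels give the KO genotype for every stage but do not say whether it is that of the mother, the embryo or both, how the mice were mated, or which allele was deleted. They also do not say if replicate libraries were made from different mice, and p-values then reflect only how far these libraries vary, which may be technical variation.

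The fully grown mouse oocyte is transcriptionally silent and lives on stored messenger RNA. After meiosis resumes, this maternal RNA is removed in steps, first by factors already present in the oocyte and later by factors made by the embryo, while the embryonic genome becomes active at the 2-cell stage. Deadenylation by the CCR4-NOT complex, brought to transcripts by adaptors such as BTG4, is the main route of removal, and PABPN1L binds poly(A) tails in the egg and the early embryo. Some stored transcripts carry a cytoplasmic polyadenylation element (CPE) in the 3′ untranslated region (3′UTR), through which their poly(A) tail is lengthened and translation is switched on during maturation.

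Levels are deposited FPKM (fragments per length of transcript and per number of mapped fragments), and no value lies below 1 FPKM, called the floor. Summed over all genes, KO GV oocytes held 604492 ± 2822 FPKM (SD, n = 2) and KO 2-cell embryos 63823 ± 381 FPKM, or 10.6% of the oocyte sum. The WT 2-cell sum was 9.58% of the WT oocyte sum. The authors' columns for embryos carry a library factor, 0.13 and 0.121 in the KO 2-cell libraries against 1 in the oocyte libraries, whose basis is not given in the sources used here. Divided by this factor, values above the floor summed to 440302 and 474646 FPKM in the KO 2-cell libraries. In the KO GV libraries they summed to 605495 and 601452 FPKM. Read depth is not known from FPKM. By the labels, each library held 10 oocytes or embryos. The libraries were primed with oligo-dT. The parts of RNA per embryo, poly(A) tail length and the library factor in this sum were not tested. Replicates correlated at r = 0.988 in KO GV oocytes and 0.971 in KO 2-cell embryos. Pabpn1l stood at 7.23 and 4.98 FPKM in KO GV oocytes against 220 and 204 FPKM in WT GV oocytes, as the labels state, and at 1 and 1.9 FPKM in KO 2-cell embryos. Of the oocyte and maternal markers, 12 of 12 were above the floor in both KO GV libraries, with summed levels of 20490 and 19260 FPKM. Their sums in KO 2-cell embryos were 1794 and 1870 FPKM. Of the 20 markers of the 2-cell embryo, 9 are in the table, and 2 of them, Sp110 and D5Ertd577e, held most of the sum in oocytes already. The sum of the 9 was 26.4 and 14.7 FPKM in KO 2-cell embryos and 81.3 and 79.9 FPKM in WT 2-cell embryos.

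The 2 KO 2-cell libraries differed in transcripts that appear after the oocyte. Of the 158 genes that were at least 2-fold higher in WT 2-cell embryos than in WT oocytes, 91 were above the floor in a KO 2-cell library, and 97.8% of these were higher in library 1 than in library 2, against 55.1% of the 5363 genes above the floor in either library. Dcdc2c, for example, stood at 239 and 35 FPKM. For some of the results that rest on such genes, values without 1 of these libraries are given below.

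A pair of scales is needed to read the net change. On the deposited scale a gene is compared by its FPKM, so the factor of the embryo libraries enters every value. On the centred scale each library was multiplied by 1 number that brings the median log2 value of the 4439 genes that exceed the floor in each of the 4 KO libraries to the KO oocyte median, so a change is relative to the typical detected transcript. The highest floor that results, 10.4 FPKM, was applied to all libraries, and 4626 genes were at it in all 4 KO libraries and could not differ. Differences are of log2(value + 1), which understates the change of low genes, and were tested with limma over all genes (two-sided, called at a Benjamini-Hochberg adjusted p under 0.05). On the deposited scale the median difference over all genes was -1.83, and over the 4439 genes the median fall was 7.81-fold.

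On the deposited scale, where the library factor enters every 2-cell value, most transcripts fell between the KO oocyte and the KO 2-cell embryo. Of the 11298 genes, 9534 fell (84.4%) and 50 rose (0.443%), and 7810 fell at least 2-fold (69.1%). Before the library factor, with a common floor of 8.61 FPKM, 2894 genes were lower and 1467 higher. In all, 4779 genes were above the floor in both oocyte libraries and at it in both 2-cell libraries, whereas 35 genes showed the reverse. Relative to the typical transcript, 2424 genes were lower (21.5%) and 1821 higher (16.1%). Of the 6672 genes above the common floor in at least 1 of the 4 KO libraries, which alone could differ, these are 36.3% and 27.3%. All 2424 were also lower as deposited, while 1639 of the 1821 were lower as deposited, that is, they fell less than most. Only 44 genes rose on both scales. The split depends on the scale: of all calls, 0.522% were higher as deposited, 42.9% after centring, 33.6% before the library factor and 55.2% after quantile normalization, which moved the median of all genes to 0.12. Without KO 2-cell library 2 the deposited count of rises was 168, and without KO GV library 1 it was 28.

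The depth of the fall increased with the level in the oocyte. For the 3195 genes at 5 to 20 FPKM in KO oocytes the median deposited difference was -2.12, and 51.9% were at the floor in both KO 2-cell libraries. For the 2672 genes at 20 to 100 FPKM it was -3.45, for the 968 genes at 100 to 500 FPKM -4.17, and for the 218 genes over 500 FPKM -5.03. In median, genes over 500 FPKM kept 3.11% of their oocyte level and genes at 20 to 100 FPKM kept 6.14%. On the centred scale 144 of the 218 genes over 500 FPKM were lower and 26 higher. At 20 to 100 FPKM 50.9% were lower and 23.5% higher, and at 100 to 500 FPKM 58.3% and 19.9%. The bands use the same oocyte libraries as the contrast, and in the lowest bands the floor bounds the fall.

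**Figure D1:**
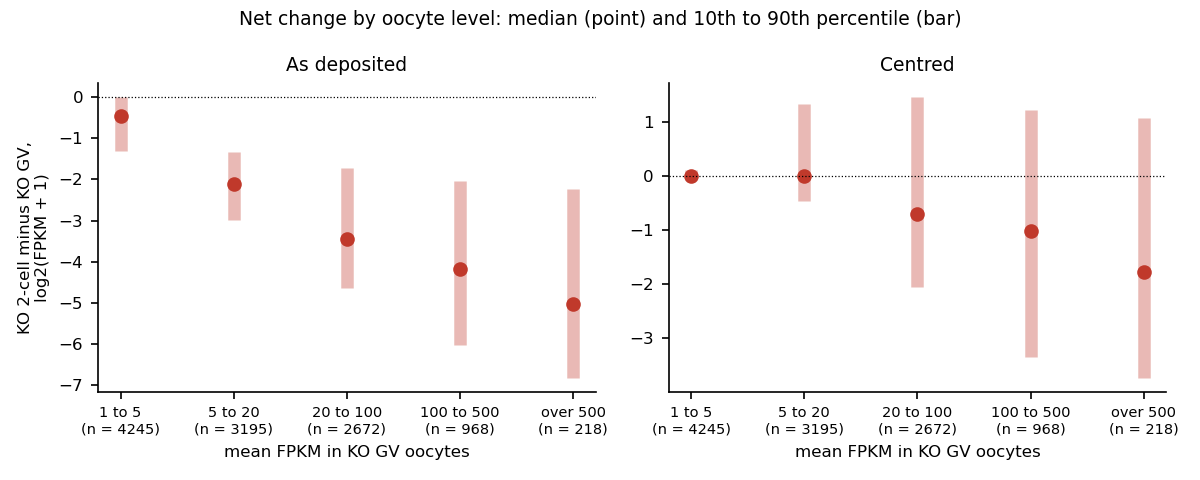
Net change (KO 2-cell minus KO GV, log2 scale, vertical axis) of genes in 5 bands of mean KO oocyte FPKM (horizontal axis), as deposited on the left and centred on the right. Points are medians over genes and bars run from the 10th to the 90th percentile; the medians fall from -0.46 to -5.03 as deposited and from 0 to -1.77 after centring.

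Btg4 and Dazl mark this comparison. Btg4, which encodes the adaptor that recruits CCR4-NOT to maternal transcripts, stood at 2174 and 2290 FPKM in KO oocytes, at 2101 and 2283 FPKM in KO 1-cell embryos and at 650 and 612 FPKM in KO 2-cell embryos. The GV and 1-cell values overlapped, while the GV and 2-cell libraries did not overlap. The deposited difference was -1.82 ± 0.23 (SE, adjusted p = 4.62e-05), and relative to the typical transcript Btg4 was higher by 1.48 ± 0.32 (adjusted p = 0.00857). With the 4 KO libraries alone the centred adjusted p was 0.124. Dazl encodes a germ cell RNA-binding protein that promotes translation of stored transcripts. It stood at 372 and 322 FPKM in KO oocytes, 197 and 206 FPKM in KO 1-cell embryos and 54.8 and 77.9 FPKM in KO 2-cell embryos, so it kept 19.1% of its oocyte level. The deposited difference was -2.39 ± 0.23 (adjusted p = 5.35e-06), and the centred one 0.90 ± 0.22 (adjusted p = 0.0151). The centred call of Dazl was lost with the 4 KO libraries alone (adjusted p = 0.136), without KO 2-cell library 2 (0.61, adjusted p = 0.062), without KO GV library 2 (0.79, adjusted p = 0.0846) and when only genes above 5 FPKM were used for centring (0.44, adjusted p = 0.117).

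**Figure D2:**
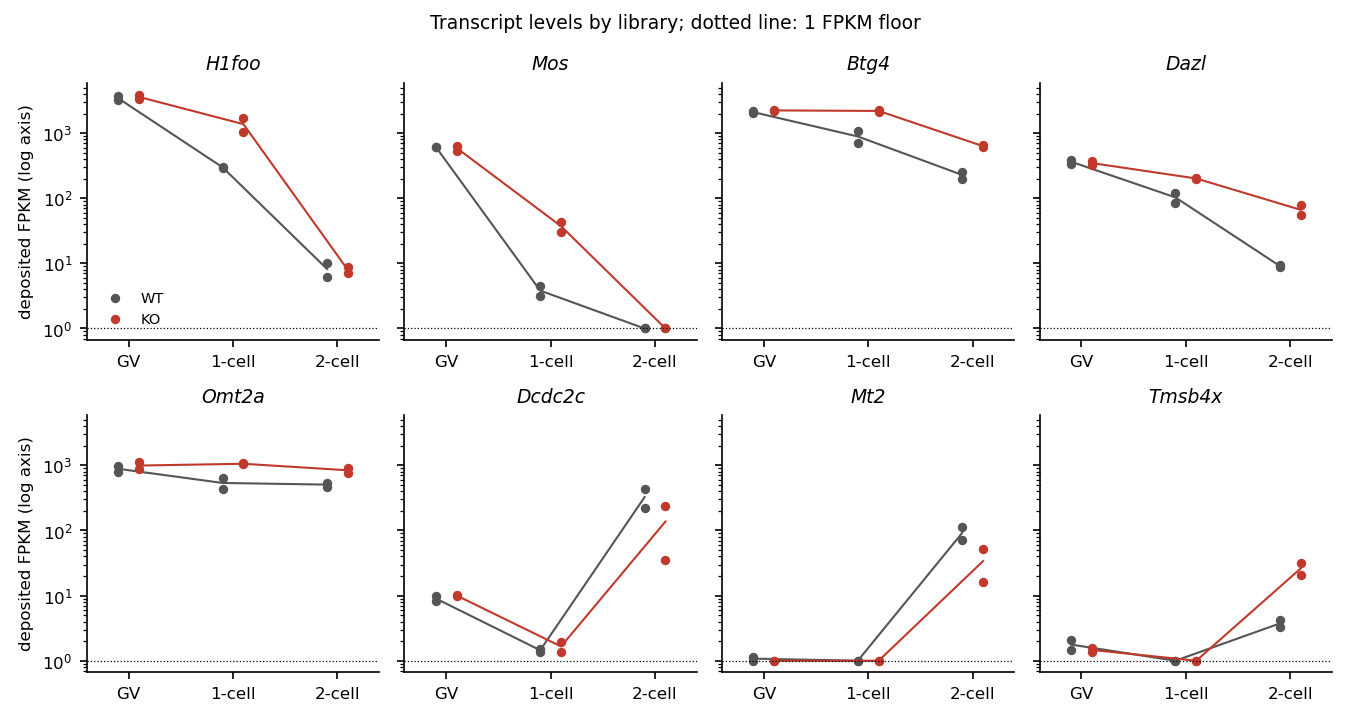
FPKM as deposited (vertical axis, log scale) of 8 transcripts in GV oocytes, 1-cell and 2-cell embryos (horizontal axis), KO in red and WT in grey. Points are single libraries, lines join the means, and the dotted line is the 1 FPKM floor; H1foo and Mos fall to 10.3 FPKM or less in both genotypes, Btg4 and Dazl stay above WT in KO 2-cell embryos, and Dcdc2c, Mt2 and Tmsb4x rise.

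The 10 largest centred falls are listed here as a description, since the common floor lets only transcripts of high oocyte level show a fall of this size, and a gene at the floor in 2-cell embryos, such as Mos or Gja4, may have fallen further than its value. Mos, the kinase that holds the egg in metaphase II, stood at 644 and 538 FPKM in KO oocytes, 30.8 and 43.6 FPKM in KO 1-cell embryos and at the floor in both KO 2-cell libraries. The centred difference was -5.69 ± 0.22 (adjusted p = 5.39e-06). H1foo, the oocyte linker histone, went from 3892 and 3303 FPKM through 1053 and 1691 FPKM to 7.08 and 8.76 FPKM, so 0.22% of the oocyte level was left. Its centred difference was -5.51 ± 0.32 (adjusted p = 2.17e-05). Tacc3, a spindle protein, went from 577.4 and 445.3 FPKM to 1.09 and 1 FPKM. Gja4, the connexin of the junctions between oocyte and granulosa cells, went from 411 and 365 FPKM to the floor in both libraries. Tubb4b, a beta-tubulin, went from 1272 and 1044 FPKM to 5.135 and 2.985 FPKM. The other 5 of the 10 largest centred falls were Gm813, Ccno, Fam162a, Mrps36 and Mrps22, with centred differences between -5.11 and -4.77. In each of the 10, both KO 1-cell libraries lay below both KO oocyte libraries. The median gene of at least 20 FPKM in KO oocytes stood at 41.9% of its oocyte level in KO 1-cell embryos. Each of the 10 also fell as deposited, which their choice required.

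The 8 most abundant transcripts of the KO 2-cell embryo were all abundant in the oocyte, and their deposited levels ranged from 17.5% (Tlcd2) to 106.9% (Gm20594) of the oocyte level. The oocyte-secreted protein gene Oosp1 stood at 3006 and 3895 FPKM in oocytes and at 888 and 940 FPKM in 2-cell embryos, a deposited difference of -1.90 ± 0.23 (adjusted p = 3.28e-05). Omt2a, an oocyte maturation gene, stood at 879 and 1108 FPKM in oocytes and at 909 and 772 FPKM in 2-cell embryos. These groups overlap, and the deposited difference of -0.24 ± 0.23 did not pass the test (adjusted p = 0.368), while the centred one was 3.07 ± 0.26 (adjusted p = 9.96e-05). Its neighbour Omt2b fell from 1432 and 1744 FPKM to 851 and 866 FPKM. The 2 genes share the same 3′ sequence around their last CPE, printed below, so reads may be split between them. Gm97 fell from 2393 and 2857 FPKM to 599 and 691 FPKM, and Tlcd2 from 4687 and 3694 FPKM to 542 and 925 FPKM. The highest mean of all was that of Rn45s, the 45S ribosomal RNA precursor, at 1603 and 1325 FPKM, against 2446 and 6099 FPKM in KO oocytes. Gm20594 stood at 1329 and 695 FPKM in 2-cell embryos and 767 and 1127 FPKM in oocytes, and the deposited difference was 0.05 ± 0.34 (adjusted p = 0.941). At the other end, Skp1a kept 8.44% of its oocyte level, Ldhb 1.10% (30.2 and 48.7 FPKM) and E330017A01Rik 28.8 and 38.7 of 4432 and 4679 FPKM, although all 3 were among the 8 most abundant transcripts of the KO oocyte.

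Of the 50 genes that rose as deposited, 27 were at the floor in both KO oocyte libraries, and 44 were higher in KO 2-cell library 1 than in library 2. Libraries at the floor show no spread, so the SE and p-values of such genes can come out too small. Among genes that rose on both scales, the largest centred difference was that of Dcdc2c, a doublecortin domain gene, at 10.2 and 9.92 FPKM in oocytes, 1.94 and 1.37 FPKM in 1-cell embryos and 239 and 35 FPKM in 2-cell embryos. The rise follows a low point at the 1-cell stage, and both 2-cell libraries lie above all oocyte libraries. Its deposited difference was 3.08 ± 0.70 (adjusted p = 0.00231), and the call was lost with the 4 KO libraries alone (adjusted p = 0.0889). Gm7102 (4.29 and 4.39 to 194 and 31.6 FPKM) and 2310039L15Rik (26.7 and 22.2 to 302 and 45.7 FPKM) showed the same split between the libraries. The deposited call of 2310039L15Rik was lost without KO 2-cell library 1 (0.88, adjusted p = 0.053), without KO GV library 1 (adjusted p = 0.0587) and without KO GV library 2 (adjusted p = 0.0844). Churc1, a zinc-binding protein gene, rose from 14 and 15.4 FPKM to 52.4 and 38.4 FPKM, a deposited difference of 1.55 ± 0.33 (adjusted p = 0.00157). The vault RNA gene Vaultrc5 rose from 1.67 and 1 FPKM through 26.3 and 12.9 FPKM at the 1-cell stage to 40.5 and 48.2 FPKM. Slfn5 (6.8 and 9.04 to 16.9 and 12.5 FPKM) and Gm15645 (15.7 and 25.6 to 57 and 34.8 FPKM) completed the 10 largest with the genes described next. The deposited calls of Slfn5 and Gm15645 were lost with the 4 KO libraries alone (adjusted p = 0.0512 and 0.0863). They were also lost without KO 2-cell library 1 (0.61 and 0.76) and without KO GV library 1 (0.63 and 0.78). That of Slfn5 was lost without KO GV library 2 as well (0.996).

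Both metallothionein genes, whose products bind zinc and copper, rose. Mt2 was at the floor in all 4 KO GV and 1-cell libraries and at 51.3 and 16.4 FPKM in KO 2-cell embryos, a deposited difference of 3.92 ± 0.42 (adjusted p = 1.38e-05). Mt1 went from 2.34 and 2.71 FPKM through the floor at the 1-cell stage to 41.1 and 6.61 FPKM, a deposited difference of 2.35 ± 0.66 (adjusted p = 0.00808). The deposited call of Mt1 was lost without KO GV library 1 (2.27, adjusted p = 0.0576) and in the fit of the 4 KO libraries (adjusted p = 0.126). The neighbouring genes are induced through metal response elements, so their promoters are shown, from RefSeq on GRCm38.p6, 5′ to 3′ from 250 bases before to 50 bases after the start. Capitals mark matches to the element's core, searched as TGCACNC or TGCGCNC on both strands.
Mt2, chr8:94172368-94172667, plus strand: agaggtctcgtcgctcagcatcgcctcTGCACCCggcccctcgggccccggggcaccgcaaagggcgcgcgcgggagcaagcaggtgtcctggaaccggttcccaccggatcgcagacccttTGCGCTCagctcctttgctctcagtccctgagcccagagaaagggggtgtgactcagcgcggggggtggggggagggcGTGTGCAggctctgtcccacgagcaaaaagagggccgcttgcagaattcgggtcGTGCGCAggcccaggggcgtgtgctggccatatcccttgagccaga
Mt1, chr8:94178839-94179138, plus strand: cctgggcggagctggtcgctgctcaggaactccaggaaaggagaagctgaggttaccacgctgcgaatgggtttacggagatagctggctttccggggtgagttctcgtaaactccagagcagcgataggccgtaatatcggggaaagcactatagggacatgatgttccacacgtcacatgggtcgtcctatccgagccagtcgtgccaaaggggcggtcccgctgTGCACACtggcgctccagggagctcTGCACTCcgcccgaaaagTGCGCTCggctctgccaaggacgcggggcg
The Mt2 window holds 4 matches and the Mt1 window 3. Of the 32851 promoter windows in the table, 25.7% hold at least 1 and 0.517% at least 4, and the share with at least 3 was not taken. The last Mt2 match and all but the first Mt1 match lie after the annotated start. A match is a description of letters and not of a bound site.

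Tmsb4x, an actin-binding thymosin, stood at 1.36 and 1.57 FPKM in KO oocytes, at the floor in both 1-cell libraries and at 31.2 and 21.1 FPKM in KO 2-cell embryos, a deposited difference of 3.44 ± 0.20 (adjusted p = 1.99e-07). In WT 2-cell embryos it stood at 3.29 and 4.18 FPKM. Lyz2, a myeloid lysozyme, stood at 2.33 and 2.7 FPKM in KO 2-cell embryos and at the floor in all other libraries of both genotypes. The deposited difference was 0.81 ± 0.05 (adjusted p = 3.82e-07). Libraries at the floor show no spread, so this SE and p-value understate how far replicates may differ. The called rises also include, picked here with their values in view, Cxcl10, S100a6, S100a10, Tyrobp and Vim, at 1.34 to 5.08 FPKM in the KO 2-cell libraries and at or below 1.18 FPKM in all other GV and 2-cell libraries. Of the blood and immune markers, 5 of 10 are in the table. Lyz2 alone of the 5 rose, Pecam1, Cd68 and S100a8 fell as deposited, and the sum of the 5 was 6.33 and 7.02 FPKM in KO 2-cell embryos against 18.6 and 19.2 FPKM in KO oocytes and 5.16 and 5.36 FPKM in WT 2-cell embryos. Cd68 and Pecam1 were at the floor in both KO 2-cell libraries. The part of such cells in these rises was not tested. Among 6 cumulus and granulosa cell markers and 3 sperm markers in the table, none was above 1.65 FPKM in a KO 2-cell library.

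Among the 20 lineage and pluripotency regulators in the table, 13 fell and 2 rose as deposited, against 84.4% and 0.443% of all genes. Nanog, a core pluripotency factor, rose from 2.06 and 3.03 FPKM to 7.45 and 5.02 FPKM (deposited difference 1.02 ± 0.24, adjusted p = 0.00309). Klf4, another reprogramming factor, rose from 1.11 and 1.84 FPKM to 6.03 and 3.44 FPKM. On the centred scale Yap1 and Gata3 were also higher, and Dppa2, Sall4 and Esrrb were lower. Dppa2, an activator of 2-cell genes, went from 157 and 153 FPKM to 2.9 and 3.75 FPKM. Of the 19 transient 2-cell genes in the table, 5 fell and 14 were not called as deposited, where 84.4% of all genes fell. Only 3 of the 19, and 7 of the 20 lineage and pluripotency regulators, stood at 20 FPKM or more in KO oocytes. Genes near the floor have little room to fall, and of the 4245 genes below 5 FPKM in KO oocytes 60.6% fell. At the common floor in all 4 KO GV and 2-cell libraries were 4 of the 19. On the centred scale Pramef8 was higher, and Sp110, D5Ertd577e and Pramef12 were lower. The call of Pramef8 was lost with the 4 KO libraries alone (adjusted p = 0.0653) and with centring on genes above 5 FPKM (adjusted p = 0.0709). Without KO 2-cell library 2 the centred count was 8 higher, and without library 1 it was 2. Gm8300 stood at 7.11 FPKM in library 1 and 1.003 FPKM in library 2, and Gm5039 at 7.05 and 1.003 FPKM.

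The genes of deadenylation were mixed. Of 21 adaptors and deadenylases, 20 fell as deposited, against 84.4% of all genes. Relative to the typical transcript, however, 8 were higher and 2 lower, against 16.1% and 21.5% of all genes. Of genes above the common floor in a KO GV or KO 2-cell library, 27.3% were higher and 36.3% lower. At that floor in all 4 KO libraries were 3 of the 21. The deposited median was -2.28, against -1.83 for all genes. The centred median was 0.25, and it was 0.00 before the library factor and with centring on genes above 5 FPKM, where 6 were higher and 4 lower in each case. The catalytic subunits Cnot6 (8.43 and 14.1 to 6.62 and 5.44 FPKM), Cnot6l (89.5 and 129 to 23.4 and 27.8 FPKM) and Cnot7 (203 and 167 to 45.9 and 51.7 FPKM) were centred higher, with differences of 2.21, 1.22 and 1.38. Pan3, of the PAN2-PAN3 deadenylase, was higher by 2.13 ± 0.18 (adjusted p = 9.44e-05). Cnot10 and Rqcd1, non-catalytic subunits, were lower by 0.87 and 0.45 on that scale, and the scaffold Cnot1 stood at -0.30 (adjusted p = 0.196). The call of Rqcd1 was lost with the 4 KO libraries alone (adjusted p = 0.146). It was also lost without either KO 2-cell library (-0.44 and -0.46) and without KO GV library 1 (-0.31). Of 17 decapping and 5′ decay genes, 4 were centred higher and 7 lower. Dcp2, the decapping enzyme, kept 4.73 and 5.01 of 7.28 and 8.3 FPKM and was higher by 2.11 ± 0.09, whereas Lsm3 and Patl2 were lower by 2.31 and 2.00. Of 19 exosome genes, 3 were centred higher and 8 lower, with Exosc2 at 2.73 and Exosc1 at -2.09.

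Of the 8 poly(A)-binding proteins and partners in the table, all 8 fell as deposited, where 84.4% of all genes did. On the centred scale 3 were higher and 2 lower, against 16.1% and 21.5% of all genes. Of genes above the common floor in a KO GV or KO 2-cell library, 27.3% were higher and 36.3% lower. Pabpn1, the nuclear poly(A)-binding protein, went from 13.8 and 24.9 FPKM to 10.2 and 9.78 FPKM and was higher by 2.35 ± 0.25 (adjusted p = 0.000278). Paip1, a PABP-interacting stimulator of translation, was higher by 1.76, and Pabpc1, the main somatic cytoplasmic form, by 0.99 although it stood at only 2.91 and 1.63 FPKM. The call of Pabpc1 was lost with the 4 KO libraries alone (adjusted p = 0.151) and with centring on genes above 5 FPKM (0.59, adjusted p = 0.133). It was also lost without either KO GV library (0.99 in each case). Pabpc1l, the oocyte cytoplasmic form, went from 112 and 80.4 FPKM to 1.47 and 2.29 FPKM and was lower by 2.32 ± 0.36 (adjusted p = 0.00182). Paip2, which counteracts PABP, was lower by 1.21. Pabpc4 (-0.24), Paip2b (-0.80) and Pabpn1l itself (0.42) did not pass the centred test.

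Genes of cytoplasmic polyadenylation and of RNA storage were the list with the highest centred median, 0.50. Of 32 members, 17 were higher, Dazl among them, and 6 lower, against 16.1% and 21.5% of all genes. Of genes above the common floor in a KO GV or KO 2-cell library, 27.3% were higher and 36.3% lower. Before the library factor and with centring on genes above 5 FPKM 10 were higher and 6 lower. As deposited the median was -1.81, against -1.83 for all genes, and under the scalings that remove the common fall it ran from 0.08 with centring on genes above 5 FPKM to 1.16 without the common floor. Ybx1, an RNA-packaging protein, stood at 31 and 50.2 FPKM in oocytes and 20.9 and 25.6 FPKM in 2-cell embryos and was higher by 2.51 ± 0.28 (adjusted p = 0.000341). The repressor Pum2 was higher by 2.15, Lsm14a by 1.92, Igf2bp3 by 1.72 and the cytoplasmic poly(A) polymerase Papd4 by 1.49. Cpeb1, the CPE-binding protein of the oocyte, went the other way, from 214 and 250 FPKM through 26.3 and 37.4 FPKM at the 1-cell stage to 2 and 2.4 FPKM, a centred difference of -3.36 ± 0.14 (adjusted p = 7.33e-06). Igf2bp2, Stau1, Fxr1, Papola and Papolg were also lower. Of 10 genes of m6A writing and reading, 3 were centred higher and 1 lower, against 16.1% and 21.5% of all genes, and 2 were higher and 5 lower both before the library factor and with centring on genes above 5 FPKM. The 3 were the writer subunit Wtap (1.96) and the readers Ythdf3 (1.25) and Ythdf1 (0.86). The call of Ythdf1 was lost in 5 alternatives, with adjusted p from 0.0595 to 0.244. Mettl14, the partner of the catalytic subunit, was lower by 1.42 and at the floor in both KO 2-cell libraries, and Ythdf2 stood at -0.35 (adjusted p = 0.0827).

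**Figure D3:**
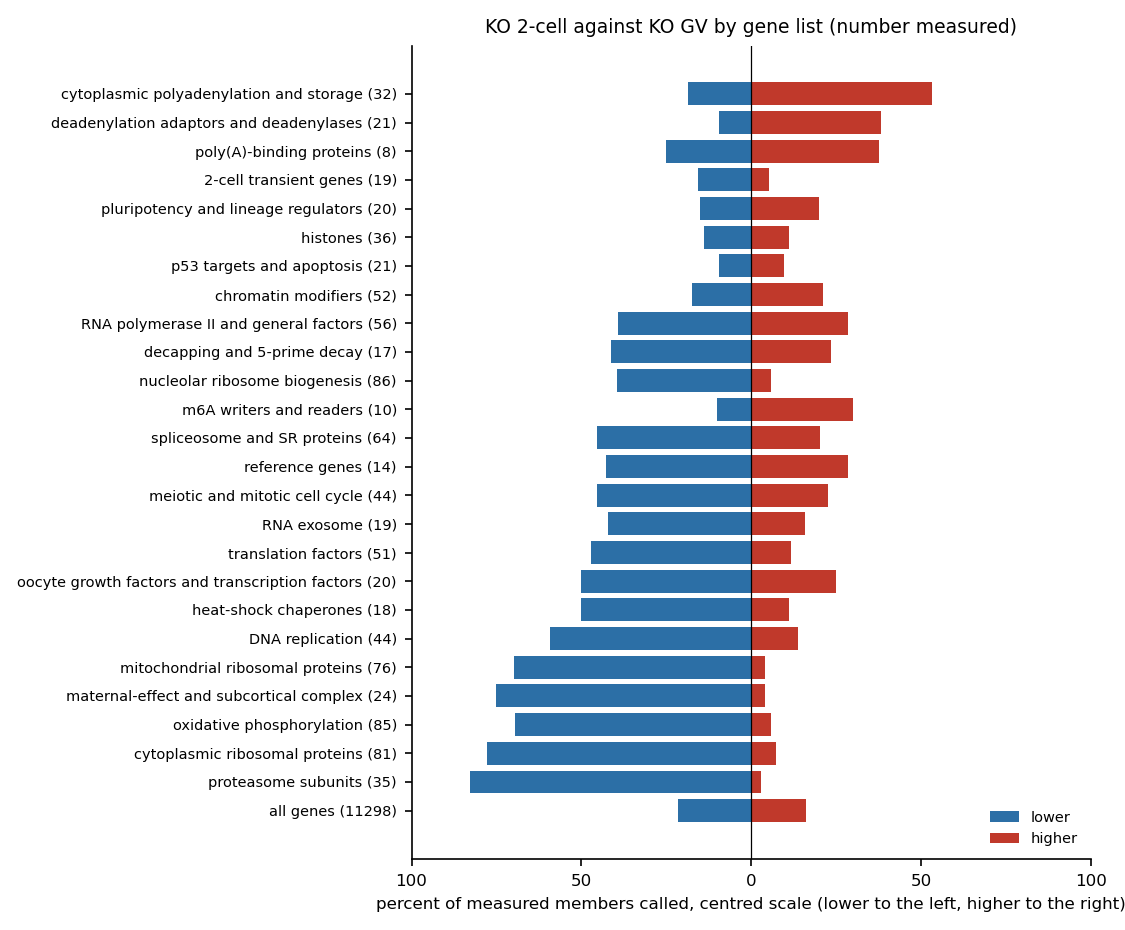
Percent of the measured members of each gene list (horizontal axis) that were called lower (blue, to the left) or higher (red, to the right) on the centred scale, ordered by the list's median difference, with all 11298 genes at the bottom. Of all genes, 4626 were at the common floor in all 4 KO libraries and could not be called. Storage and deadenylation genes lie at the top with 17 of 32 and 8 of 21 members higher, and proteasome and cytoplasmic ribosomal protein genes at the bottom with 29 of 35 and 63 of 81 lower.

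Maternal-effect genes fell further than the typical transcript. Of 24, 24 fell as deposited, against 84.4% of all genes. On the centred scale 18 were lower and 1 higher, against 21.5% and 16.1% of all genes. Of genes above the common floor in a KO GV or KO 2-cell library, 36.3% were lower and 27.3% higher. The share lower also rises with oocyte level, and 23 of the 24 stood at 20 FPKM or more in KO oocytes. Of all genes, 50.9% were lower at 20 to 100 FPKM, 58.3% at 100 to 500 FPKM and 66.1% over 500 FPKM. The centred median of the list was -1.66 (from -2.045 to -1.70 under the other scalings). Members of the subcortical maternal complex were among the deepest: Ooep went from 2279 and 2708 FPKM to 9.67 and 9.36 FPKM (-4.71 ± 0.25, adjusted p = 1.54e-05), Tle6 from 1048 and 632 FPKM to 3.28 and 4.45 FPKM, and 2410004A20Rik to 1 and 1.32 FPKM. The maintenance methyltransferase Dnmt1 went from 203 and 288 FPKM to 1.09 and 1.07 FPKM. Nlrp4e alone was centred higher, by 1.99 ± 0.35 (45 and 34.1 to 13.6 and 19 FPKM). Dppa3, which protects the maternal genome from demethylation, kept 236 and 243 of 3020 and 3257 FPKM, a centred difference of -0.40 that did not pass the test (adjusted p = 0.4535). Among 20 oocyte growth and transcription factors 10 were centred lower and 5 higher, to be read against the same shares. The growth factor Gdf9 went from 3562 and 2331 FPKM to 26.5 and 33.5 FPKM (-3.29), while its partner Bmp15 went from 1780 and 1631 FPKM to 124 and 146 FPKM (-0.36, adjusted p = 0.1665). Figla and Nobox, oocyte transcription factors, were lower by 2.76 and 1.98, and Omt2a, Omt2b, Oog3, Oosp1 and Taf4b were the 5 higher. The centred call of Oosp1 (1.40) was lost with the 4 KO libraries alone (adjusted p = 0.313) and with the GV and 2-cell libraries alone (adjusted p = 0.0863). It was also lost with a replicate block (adjusted p = 0.0824) and with centring on genes above 5 FPKM (0.94, adjusted p = 0.0564). Leaving out any KO GV or KO 2-cell library lost it too, at 1.22 to 1.58.

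Of 44 cell cycle genes 20 were centred lower and 10 higher, where 21.5% and 16.1% of all genes were. Of genes above the common floor in a KO GV or KO 2-cell library, 36.3% were lower and 27.3% higher. At that floor in all 4 KO libraries were 5 of the 44. After Mos, checkpoint and mitotic kinases led the lower ones: Bub1b went from 225 and 247 FPKM to the floor in both libraries (-4.37 ± 0.11), Aurka from 199 and 157 FPKM to 2.01 and 1.2 FPKM, Plk1 from 96.6 and 89.4 FPKM to 1.07 and 1 FPKM and Cdk1 from 98.4 and 85.5 FPKM to 1.88 and 1 FPKM. The CDK-binding subunits Cks2 (1192 and 1367 to 410 and 420 FPKM) and Cks1b, the oocyte kinase Wee2, the checkpoint protein Mad2l1 and the cyclin Ccna2 were centred higher, by 1.68, 1.36, 1.42, 1.16 and 1.26. Pttg1, or securin, kept 110 and 146 of 2882 and 2954 FPKM after standing at 2636 and 2476 FPKM in 1-cell embryos. Of 44 DNA replication genes 26 were lower and 6 higher, with Rfc3 and Gins1 at the floor in both 2-cell libraries.

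Lists of the ribosome, the proteasome and respiration had negative centred medians, as maternal-effect genes did. Their counts are to be read against the 21.5% of all genes that were lower and the 16.1% that were higher. Of genes above the common floor in a KO GV or KO 2-cell library, 36.3% were lower and 27.3% higher. Of 81 cytoplasmic ribosomal protein genes, 63 were centred lower and 6 higher, with a median of -1.91. Rps27l (667 and 839 to 420 and 447 FPKM) and Rps2 (312 and 352 to 169 and 156 FPKM) were the members with the highest centred difference, 2.52 and 2.27, and Rplp2, Rps28, Rpl7l1 and Rpsa were the other 4. Many of these genes have near-identical processed copies, so their levels are uncertain. Of 76 mitochondrial ribosomal protein genes 53 were lower and 3 higher (median -1.50), of 85 oxidative phosphorylation genes 59 and 5 (median -1.68), and of 35 proteasome subunits 29 and 1 (median -2.22). In these 4 lists, in this order, 80, 64, 77 and 34 members stood at 20 FPKM or more in KO oocytes. Of all genes, 50.9% were lower at 20 to 100 FPKM, 58.3% at 100 to 500 FPKM and 66.1% over 500 FPKM. Atp5o, an ATP synthase subunit, went from 292 and 331 FPKM to 1.11 and 1 FPKM, and Psmc5 and Psmc4, proteasome ATPases, to the floor in both libraries. The cytochrome oxidase subunits Cox6b2 (190 and 254 to 212 and 158 FPKM, a deposited difference of -0.27, adjusted p = 0.261) and Cox8a (426 and 460 to 319 and 259 FPKM) were centred higher by 3.03 and 2.68. Each of these 4 medians was negative under every scaling tried, and of the 51 translation factors 24 were lower and 6 higher.

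Other lists for gene expression were mixed, and their counts are to be read against the 21.5% of all genes that were lower and the 16.1% that were higher. Of genes above the common floor in a KO GV or KO 2-cell library, 36.3% were lower and 27.3% higher. Of 86 nucleolar genes 34 were centred lower and 5 higher, and Nip7 (33.2 and 37.3 to 35.7 and 24.9 FPKM) was higher by 3.03 while Noc4l went from 209 and 158 FPKM to the floor. Of 56 genes of RNA polymerase II and its general factors, 22 were lower and 16 higher. Polr2k went from 636 and 814 FPKM to 4.34 and 3.18 FPKM, and Gtf2a2 kept 108 and 86 of 206 and 233 FPKM. Of 64 spliceosome genes 29 were lower and 13 higher, with Snrpg at 398 and 430 of 608 and 742 FPKM. Of 52 chromatin modifiers 9 were lower and 11 higher, against 21.5% and 16.1% of all genes, and the balance turned with the scaling, with 13 lower and 7 higher with centring on genes above 5 FPKM, 12 and 9 before the library factor and 9 and 23 after quantile normalization. The polycomb genes Bmi1 (145 and 185 to 131 and 105 FPKM) and Suz12 (42.3 and 76 to 39.2 and 42.1 FPKM) were higher by 2.82 and 2.80, with deposited differences that did not pass the test. Of 18 heat-shock chaperones 9 were lower and 2 higher, and the constitutive chaperone Hspa8 went from 700 and 619 FPKM to 16.4 and 6.09 FPKM. Of 36 histone genes 5 were lower and 4 higher, and 20 were at the common floor in all 4 KO libraries. Of 21 p53 targets and apoptosis genes 2 were lower and 2 higher, and 12 were at that floor. Both lists lie at or below the shares of all genes, 21.5% lower and 16.1% higher.

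Genes lower on the centred scale had shorter 3′UTRs and fewer CPEs than genes higher on it, a feature that the comparison did not use. A GENCODE M21 (GRCm38) transcript was matched by symbol to 93.6% of genes, and the CPE was searched as TTTTAT or TTTTAAT on the transcript strand of the 3′UTR. The median 3′UTR was 598.5 bases for genes lower on the centred scale, 958 bases for genes not called and 1378 bases for genes higher, over the genes above the common floor in a KO GV or KO 2-cell library. At least 1 CPE was found in 47.7%, 64.4% and 79.6% of them, against 60.75% of all genes in the table. A longer 3′UTR holds more matches by length alone, so the share was also taken over 3′UTRs of 300 to 1000 bases, where it was 45.3%, 53.5% and 65.9%. Per kilobase there were 1.23, 1.44 and 1.79 matches. Read by length, 57.3% of genes with a 3′UTR of 30 to 300 bases were lower and 13.6% higher, whereas at 2000 bases and more 25.4% were lower and 40% higher. The shares of genes with a CPE were 50.2% and 79.2% for lower and higher genes before the library factor, 47.6% and 76.8% after quantile normalization, 50.5% and 80.1% with centring on genes above 5 FPKM, and 47% and 79.3% without KO 2-cell library 1. In the centred WT net change, where 21.2% of genes were lower and 21.3% higher, they were 53.3% and 73.9%. These are descriptions, and transcript length moved with them (medians 2084, 2678 and 3460 bases) as did 3′UTR G and C content (44.6%, 42.7% and 39.8%), whose part was not tested. The libraries were primed with oligo-dT, and the part of poly(A) tail length in these levels was not tested.

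Single transcripts on either side of the pattern show its limits. The windows of 30 bases at the last CPE of 6 transcripts are printed 5′ to 3′ on GRCm38, with the CPE in capitals; the first 4 were higher and the last 2 lower than the typical transcript.
Btg4, chr9:51119797-51119826, plus strand: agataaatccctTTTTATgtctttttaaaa
Dazl, chr17:50279752-50279781, minus strand: aagtcaaaattcTTTTATgtcaccaagtca
Omt2a, chr9:78312016-78312045, minus strand: gggttttaacggTTTTATaataaataaaag
Omt2b, chr9:78329555-78329584, plus strand: gggttttaacggTTTTATaataaataaaag
H1foo, chr6:115950157-115950186, plus strand: cgattctgaagcTTTTATtgtctaataagc
Gdf9, chr11:53437854-53437883, plus strand: agagtgctgtggTTTTATgtgacggaagaa
Btg4 holds 5 matches in 521 bases of 3′UTR and Dazl 6 in 1852 bases, while H1foo and Gdf9 hold 1 each in 336 and 360 bases. Mos, Ooep, Tacc3 and Gja4, which are among the large centred falls, hold 0 in the transcript used, and so does Tlcd2, which kept 17.5% of its level. No match says only that these letters are not in the annotated 3′UTR of that transcript.

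The 1-cell libraries show how far the fall had gone at that stage. Among the 3858 genes of at least 20 FPKM in KO oocytes, the median KO 1-cell level was 41.9% and the median KO 2-cell level 5.68% of the oocyte level, against 15.7% and 6.23% in WT. Genes lower on the centred scale were already at 23.1% in KO 1-cell embryos and reached 3.08%, and genes higher on it were at 72% and reached 24.9%. Lists differed in their course. The 80 cytoplasmic ribosomal protein genes of that level were at 6.55% in KO 1-cell embryos and 2.86% in KO 2-cell embryos, whereas in WT they were at 2.43% and then at 9.33%. The 13 deadenylation genes were at 72.9% and 14.8% in KO, and the 27 cell cycle genes at 53% and 4.4%. These percentages carry the library factors of the 1-cell and 2-cell columns.

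The difference in net change between KO and WT embryos was tested as an interaction, the KO net change minus the WT net change. Over the 3925 genes that exceed the floor in each of the 8 libraries, centred net changes correlated at r = 0.755 and deposited ones at 0.835 (across genes, which are not independent, and which share the library factors). On the deposited scale 500 genes had a higher net change in KO (4.43%) and 886 a lower one (7.84%). On the centred scale the counts were 946 (8.37%) and 1529 (13.5%), and 389 and 800 were called on both scales. Centring on genes above 5 FPKM gave 457 and 1947, so 19% of calls were then higher instead of 38.2%, and quantile normalization gave 48.5%.

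Transcripts whose level fell less in KO than in WT led the positive side. Lsm5, a decapping cofactor of the LSM ring, fell from 492 and 555 FPKM to 158 and 187 FPKM in KO and from 380 and 418 FPKM to 7.62 and 9.2 FPKM in WT, a centred interaction of 3.97 ± 0.47 (adjusted p = 0.00116). The 4 KO values and the WT 2-cell values do not overlap. Tm2d1 kept 14.6% of its level in KO and 0.603% in WT (4.52 ± 0.47, adjusted p = 0.000659). Pdcd6, a calcium-binding protein gene, kept 29% and 1.34% (4.28 ± 0.47), and Hist1h2bc, a core histone gene, kept 24.4 and 33.6 FPKM in KO while WT was at the floor (4.52 ± 0.45). Dazl belonged to this side, with 54.8 and 77.9 FPKM in KO against 8.68 and 9.56 FPKM in WT 2-cell embryos (2.92 ± 0.31, adjusted p = 0.00072). For Btg4, at 650 and 612 against 256 and 200 FPKM, the deposited interaction was 1.39 (adjusted p = 0.026) and the centred one 1.41 ± 0.45 (adjusted p = 0.073). The deposited call of Btg4 was lost without each GV or 2-cell library but WT 2-cell library 1 (adjusted p from 0.0591 to 0.122), and the centred one passed without the common floor (adjusted p = 0.00434) and without WT 2-cell library 1 (adjusted p = 0.0155). Rn45s, at the floor in both WT 2-cell and both WT 1-cell libraries, had the largest value, 10.65 ± 0.57 (adjusted p = 2.12e-05). Its RNA carries no long poly(A) tail as a rule and the libraries were primed with oligo-dT. Pabpn1l had a value of 4.51, with WT oocytes at 220 and 204 FPKM and KO oocytes already at 7.23 and 4.98 FPKM.

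**Figure D4:**
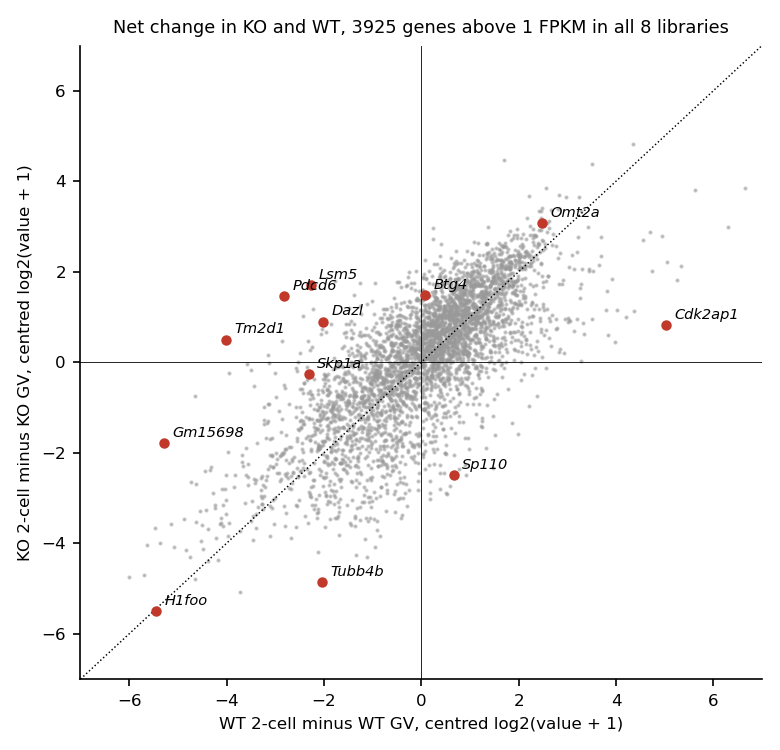
Centred net change from GV oocyte to 2-cell embryo in KO (vertical axis, log2) against WT (horizontal axis, log2) for those 3925 genes, each a grey point. Named genes are red and the dotted line marks equal change; H1foo lies on it, Lsm5, Tm2d1, Pdcd6 and Dazl lie above it, and Cdk2ap1, Sp110 and Tubb4b below it.

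The negative side held transcripts that WT embryos gained. Cdk2ap1, a CDK2-binding protein gene, went from 8.46 and 11.8 FPKM to 2.93 and 1.45 FPKM in KO and from 8.19 and 9.24 FPKM to 31.6 and 46.9 FPKM in WT (-4.20 ± 0.39, adjusted p = 0.000352). Gm11517, Cd63, Guca1a, Obox3 and Gm4850 stood at 25.4 to 58.9 FPKM in WT 2-cell embryos and at 1 to 4.38 FPKM in KO 2-cell embryos, with interactions between -5.12 and -4.17. By list, 43 of the 81 cytoplasmic ribosomal protein genes and 46 of the 86 nucleolar genes had a lower net change in KO on the centred scale, and 1 and 4 a higher one, against 13.5% and 8.37% of all genes. As deposited, 80 of the 81 and 78 of the 86 fell in WT too. Among maternal-effect genes 8 of 24 had a higher net change in KO and 1 a lower one, and among oocyte growth and transcription factors 4 of 20 a higher one.

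Of the 158 genes (1.4% of all) chosen from WT libraries alone as at least 2-fold higher in WT 2-cell embryos, 18 rose as deposited in KO (11.4%, against 0.443% of all genes), 18 fell and 122 were not called. The count of rises was 56 without KO 2-cell library 2 and 11 without library 1. Their median deposited difference was 0 in KO and 1.68 in WT, where it was chosen to be high, and 130 of the 158 had a lower net change in KO as deposited, tested against the same WT libraries that chose them. Summed over the 158 genes, KO oocytes held 361 and 383 FPKM, KO 2-cell embryos 1523 and 458 FPKM and WT 2-cell embryos 2467 and 3682 FPKM. Library 1 of the KO 2-cell embryos had 90 of them above the floor and library 2 had 47, and both KO sums lay below both WT sums. Obox6, a homeobox gene, stood at 6.55 and 2.75 FPKM in KO and 26.2 and 36.2 FPKM in WT 2-cell embryos, and Crxos1 at 6.88 and 1.89 against 29.8 and 40.6 FPKM. Of the 50 genes that rose in KO, 22 also rose in WT, where 3.12% of all genes did, and 28 were not called there, 15 of them at the floor in both WT 2-cell libraries.

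**Figure D5:**
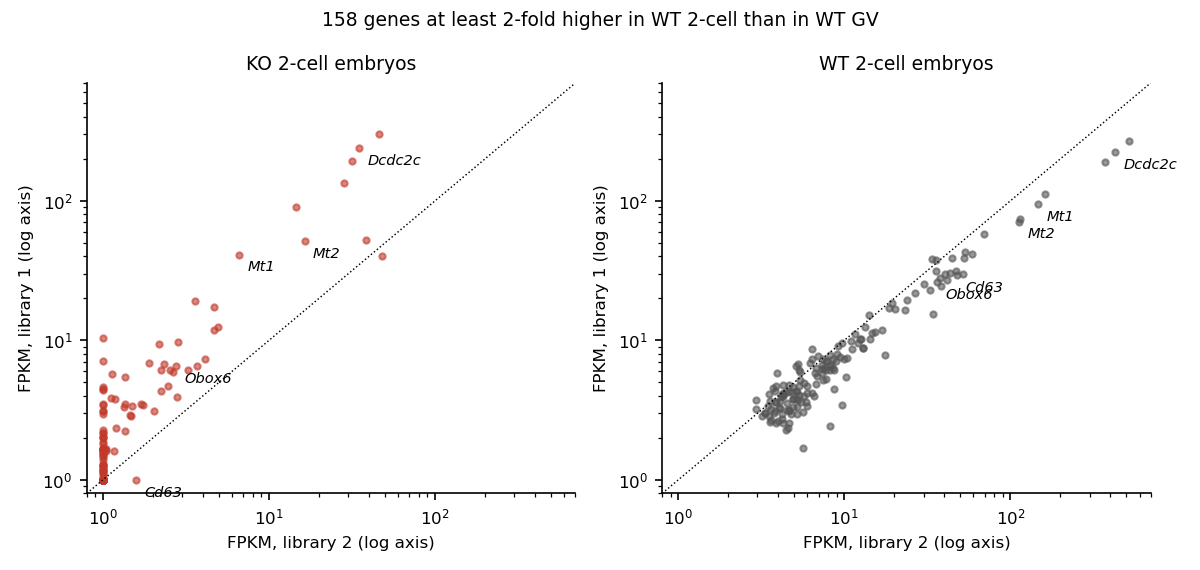
FPKM in library 1 (vertical axis, log scale) against library 2 (horizontal axis, log scale) of 2-cell embryos, KO on the left and WT on the right, for the 158 genes at least 2-fold higher in WT 2-cell embryos than in WT oocytes. In KO, 89 genes lie above the dotted line of equality and 2 below it; in WT all 158 are above the floor in both libraries.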

How the data were processed

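RNA of 12 libraries of mouse oocytes and embryos was made into cDNA with oligo-dT priming (Smart-seq2), per the labels' protocols. Levels are FPKM as deposited by the authors, made with TopHat2 2.1.1 and Cufflinks 2.2.1 against mm9, per the submitters' processing notes. No value is below 1 FPKM, and embryo columns are FPKM of 6 digits multiplied by a library factor whose basis is not given in the sources used here. The 11298 complete entries run in alphabetical order to Zc3h14, and 1 incomplete entry was left out. The table holds 0 entries for spike-ins, so the scale between stages was not checked against them.

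Differences of log2(FPKM + 1) between KO 2-cell embryos and KO GV oocytes were fitted with limma 3.58.1 (R 4.3.3, intensity trend, 1 mean per group, all 12 libraries sharing the estimate of the spread), as deposited and after centring. P-values are two-sided and Benjamini-Hochberg adjusted over all genes. The fit was tested on simulated data. The interaction is the KO net change minus the WT net change. Alternatives were the pseudocount, a filter on low values, quantile normalization, division by the library factor, other centring genes, other sets of libraries, a replicate term and each library left out; 1 more, centring all libraries on genes above the floor in all 8 GV and 2-cell libraries, was chosen after seeing the data.

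Named genes are Btg4, Dazl and Pabpn1l, the 10 largest rises and falls called on both scales, the 8 highest levels per stage, up to 2 members per list and direction, and the 6 largest interactions per direction. Other list members were named for their known role with their values in view. The members and lists were chosen with earlier results of these data known. Transcripts came from GENCODE M21 and promoters from RefSeq, both on GRCm38 and matched by symbol; no coordinate comes from mm9.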

Additional observations from a re-analysis of the deposited data

Results flagged for a closer look

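The net change from GV oocyte to 2-cell embryo differed between KO and WT, by the centred interaction test in limma and also as deposited, for 13 of the genes described above. It was higher in KO for Rn45s (10.65), Hist1h2bc (4.52), Tm2d1 (4.52), Pabpn1l (4.51), Pdcd6 (4.28), Lsm5 (3.97) and Dazl (2.92), on the log2 scale. Of these, Hist1h2bc and Rn45s were at the floor in both WT 2-cell libraries, and Pabpn1l differed between the genotypes in the oocyte already. It was lower in KO for Gm11517 (-5.12), Cd63 (-4.70), Guca1a (-4.28), Cdk2ap1 (-4.20), Obox3 (-4.18) and Gm4850 (-4.17). Gm11517, Guca1a, Obox3 and Gm4850 were at the floor in KO 2-cell library 2 and above it in library 1, and Cd63 the reverse. Each of the 13 had an adjusted p under 0.05 on both scales.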

How the results depend on the processing

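Of the alternative counts of calls, 95 lay within 1.5 times of the reported one and 23 did not, under changes of scale, filter, pseudocount and libraries; the cause was not tested. For the deposited net change, 24 genes were higher with the 4 KO libraries alone, 20 with a mean of at least 5 FPKM, 1467 before the library factor and 4339 after quantile normalization. The counts lower were 5436, 2894 and 3528 in the last 3 of these, the filter testing fewer genes. Before the library factor, deposited falls turned positive for Btg4 (1.17), Dazl (0.59), Pabpn1l (0.40), Rn45s (1.59), Oosp1 (1.09), Omt2b (2.11), Omt2a (2.755), Tlcd2 (0.44) and Gm97 (0.97). Of these positive values, only those of Btg4, Rn45s, Omt2b and Omt2a passed the test. After quantile normalization the falls turned positive for Btg4 (0.70), Dazl (0.98), Pabpn1l (1.17), Rn45s (0.62), Oosp1 (0.40), Omt2b (1.45), Omt2a (2.28) and Gm97 (0.45). There, Rn45s (adjusted p = 0.121) and Oosp1 (adjusted p = 0.148) did not pass the test. The centred net change had 1166 genes higher with centring on genes above 5 FPKM and 6716 without the common floor. For the deposited interaction, the counts higher and lower were 785 and 1555 before the library factor and 1648 and 1753 after quantile normalization, and 312 were higher with a pseudocount of 5. For the centred interaction, 457 were higher with centring on genes above 5 FPKM, and 1012 were lower with a mean of at least 5 FPKM. With each library left out in turn, the deposited net change had 28 to 168 genes higher (28 without KO GV library 1, 168 without KO 2-cell library 2) and 9175 to 9573 lower, and the centred one 1530 to 1954 and 2110 to 2402. The deposited interaction had 297 to 655 higher and 563 to 1013 lower, with 315, 297 and 299 higher without KO 2-cell library 2, WT 2-cell library 1 and WT 2-cell library 2, and 566 and 563 lower without KO 2-cell library 2 and WT 2-cell library 2. The centred interaction had 652 to 1058 higher and 1204 to 1742 lower. A group left with 1 library is assumed to vary like the others. With a replicate block the counts higher and lower were 50 and 9521 for the deposited net change, 1756 and 2348 for the centred one, and 387 and 785, and 844 and 1404, for the 2 interactions. The labels do not tie the numbers to a shared source, and same-numbered KO libraries deviated with r = -0.13 (WT 0.167). For single genes, 2897 alternative values kept direction and call, 104 lost the call, 63 gained it and 17 changed sign, and for list medians 548 stayed and 232 moved. FPKM carry no depth, and 5935 genes at the floor in both KO 2-cell libraries limit what a fall can show.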
